A study of Mus musculus with 7 samples.

Results

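The 10 immediate early genes described here (Fos, Fosb, Jun, Junb, Egr1, Egr2, Egr3, Ier2, Ier3 and Atf3) were followed across 7 arrays of sorted CD4+ T cells, out of 18193 genes that the arrays name. They were chosen by name, and for each gene every probe set whose array annotation names that gene and no other was taken, 13 probe sets in all. All 10 genes were among the 11460 genes bright enough to be tested. Levels are given as log2(intensity + 1), and a gene with several probe sets is represented by its brightest.

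Immediate early genes are transcribed within minutes of a stimulus from factors already present in the cell, before new protein is made. In T cells the antigen receptor switches them on through kinase cascades that act on the serum response factor SRF, its partners and the cAMP response element binding protein. Fos and Jun proteins pair through leucine zippers to form AP-1, which acts on cytokine genes together with NFAT, while the zinc finger factors Egr1, Egr2 and Egr3 act downstream of the same receptor and, for Egr2 and Egr3, can restrain activation. The same genes are known to respond to the handling of cells during tissue dissociation and sorting, so their level in an isolated cell need not be that in the animal.

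The cells came from peripheral lymph nodes of male mice 3 weeks old. B6 (C57BL/6), the wild type, gave 1 array from 2 pooled mice. Scurfy mice (Sf, B6.Cg-Foxp3sf/J), whose Foxp3 mutation leaves them without working regulatory T cells, gave 3 arrays, and Scurfy mice with a null Il2 gene (B6.129P2-Il2tm1Hor/J, named Sf.Il2-/-) gave 3. The Foxp3 mutation is thus shared by both mutant groups, and both alleles act in every cell of the animal. Cells positive for B220, CD8, CD11b, CD11c or NK1.1 had been removed with magnetic beads before the sort for CD3 and CD4. The comparisons ask how CD4+ T cells differ once Foxp3 is mutant, and what loss of interleukin-2 adds to that. Labels call the arrays of a group biological replicates. They do not say how many mice made each mutant array.

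Median intensity lay between 29.3 and 32.4 in every array, so a log2 level near 5 is the middle of the array and a level near 3.5 its lower quartile. The upper quartile was 140.9 in B6, 144.6 in Sf 3, 130.4 in Sf.Il2-/- 3 and 110.2 to 116.4 in the other arrays. The arrays were thus less alike at bright levels than at the median. The 8 CD4 T cell markers found were above the median of every array. Of the other cell types, neutrophil S100a8 had levels of 6.37 in array Sf 1 and 7.63 in array Sf.Il2-/- 2, with 2.53 to 4.10 elsewhere. S100a9 (5.72 and 7.09) and Camp (5.13 and 5.46) were also highest in these 2 arrays. Ngp and Ltf did not follow: Ngp was higher in Sf 2 (7.06) than in Sf 1 (6.86). Ltf was higher in Sf.Il2-/- 1 (5.77) than in Sf.Il2-/- 2 (5.52). Macrophage Lyz2 read 5.76 in Sf 1 and 7.02 in Sf.Il2-/- 2, with 4.02 to 5.05 elsewhere, and Csf1r read 8.36 to 9.49 over all arrays. The log2 of the summed intensities (the summed level) of the 5 neutrophil markers found (of 6) was 7.51 in B6, 7.24 to 8.37 in Sf and 7.34 to 9.13 in Sf.Il2-/-. Over all arrays the summed level was 8.73 to 9.91 for the 6 monocyte and macrophage markers and 7.19 to 8.29 for the 2 CD8 T cell markers. That of the CD4 T cell markers was 13.4 to 14.4. Sf 3 stood apart from the other Sf arrays, with the highest of the 3 values for 68.0% of all genes tested, while Sf 2 had the lowest for 6871 of the 11460. The Il2 probe set read 5.22 in B6, 5.39, 5.09 and 7.35 across Sf 1 to 3, and 7.17 to 8.20 in Sf.Il2-/-. It is not a test of the genotype, as where it lies against the null allele was not analysed here. Foxp3 read 7.25 in B6, 5.87 to 6.32 in Sf and 4.20 to 4.41 in Sf.Il2-/-.

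Upstream sequences are shown for 4 genes. Ier3 was the one gene past the threshold, and Atf3 the one whose 2 mutant groups lay apart. Fos and Fosb were among the genes whose levels spread widely between arrays of a group. Jun also spread widely in Sf.Il2-/-, and its window is not shown. RefSeq promoters (GRCm38.p6) were at hand for 7 of the 10 genes. Each line holds the 250 bases before the start site, 5′ to 3′ on the strand of the gene. Capitals mark matches, on either strand, to the half-site TGACG of the cAMP response element, to the Egr motif GCGNGGGCG or to the kappaB motif bound by NF-kappaB. The positions are chr17:35821463-35821712 (plus strand) for Ier3, chr1:191183334-191183583 (minus strand) for Atf3, chr12:85473640-85473889 (plus strand) for Fos and chr7:19310046-19310295 (minus strand) for Fosb.
Ier3: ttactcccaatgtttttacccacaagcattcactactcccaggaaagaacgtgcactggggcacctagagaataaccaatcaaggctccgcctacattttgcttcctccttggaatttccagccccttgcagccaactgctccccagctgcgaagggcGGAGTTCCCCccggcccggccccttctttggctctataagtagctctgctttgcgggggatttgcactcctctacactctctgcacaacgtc
Atf3: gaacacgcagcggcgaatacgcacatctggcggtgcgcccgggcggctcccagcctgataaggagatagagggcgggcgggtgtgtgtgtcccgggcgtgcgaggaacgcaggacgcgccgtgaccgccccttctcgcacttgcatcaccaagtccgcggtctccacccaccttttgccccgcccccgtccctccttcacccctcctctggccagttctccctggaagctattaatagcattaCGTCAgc
Fos: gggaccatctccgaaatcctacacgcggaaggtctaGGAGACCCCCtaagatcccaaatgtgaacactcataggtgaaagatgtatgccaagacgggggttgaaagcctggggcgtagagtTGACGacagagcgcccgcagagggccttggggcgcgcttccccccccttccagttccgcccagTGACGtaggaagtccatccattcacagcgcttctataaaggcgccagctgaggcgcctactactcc
Fosb: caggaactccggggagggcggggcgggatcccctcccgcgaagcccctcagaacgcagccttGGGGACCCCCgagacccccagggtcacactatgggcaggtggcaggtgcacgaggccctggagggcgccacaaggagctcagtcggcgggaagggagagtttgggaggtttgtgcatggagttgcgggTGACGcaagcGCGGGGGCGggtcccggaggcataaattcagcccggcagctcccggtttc

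Half-sites were found in the windows of 5 of the 7 genes (Fos, Fosb, Junb, Egr2 and Atf3), a motif that 17.8% of the 32851 promoters in the table hold. Such shares count each promoter by itself, while a gene was counted if any of its windows matched. The 7 genes had 11 windows, so counts and shares are not on the same footing. The half-site was added to the search after these sequences had been read. A kappaB match, present in 5.93% of promoters, stood in the windows of Ier3, Fos, Fosb and Egr2. In Ier3 it lay 92 to 83 bases before the start. The Egr motif (4.70% of promoters) was matched in Fosb. A CArG box, the element that SRF binds (1.47% of promoters), was matched in Egr2, the one gene with several listed starts, as CCATATATGG and, at another start, CCTTTTTTGG. Neither the full cAMP response element TGACGTCA (1.55% of promoters), which contains the half-site, nor the AP-1 motif TGANTCA (6.75%) was found in the 7 genes' windows. The window of Jun held no exact match to any of these motifs. It does hold TGACATCA, a near match to TGACGTCA, and near matches were not counted for any gene. A match describes letters in the window and is not a measured binding site.

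**Figure D1:**
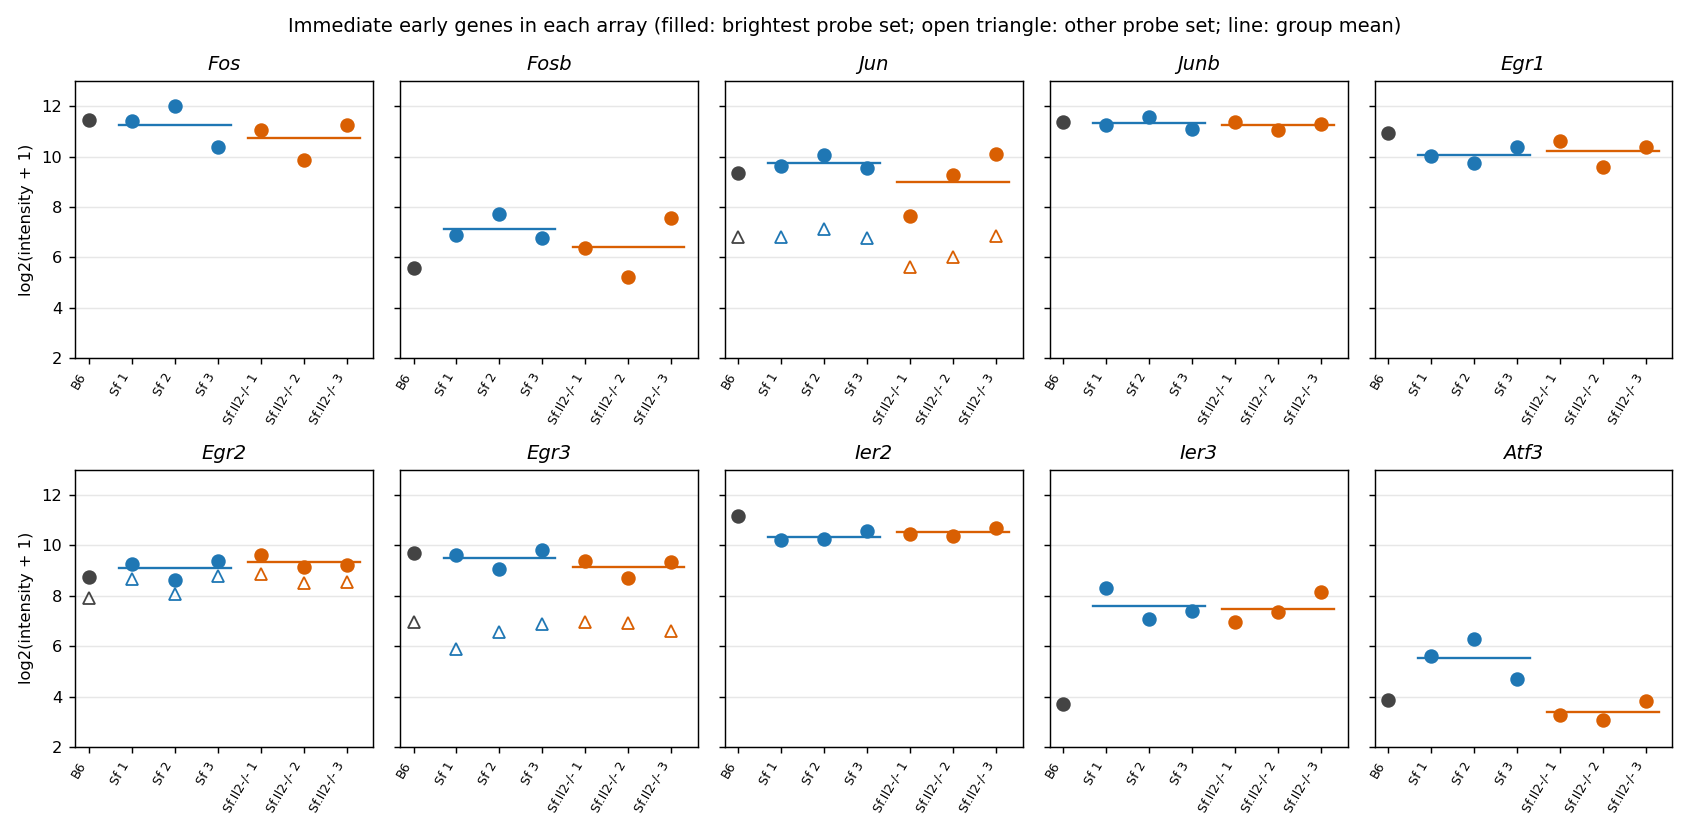
Log2(intensity + 1) of each gene (panels) in each of the 7 arrays (horizontal axis), with filled circles for the brightest probe set, open triangles for a further probe set and lines for the mean of the 3 Sf (blue) or 3 Sf.Il2-/- (orange) arrays. Ier3 is low in the B6 array alone (3.69), Atf3 is higher in the 3 Sf arrays (4.69 to 6.30) than in the others (3.07 to 3.86), and the other panels overlap between the mutant groups.

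Ier3 was higher in both mutant groups than in B6, and it alone of the 10 genes passed the threshold, an adjusted p under 0.05 over all genes tested. Ier3 (IEX-1) encodes a small stress-induced protein that acts on survival signals and is not itself a DNA-binding factor, so it is an immediate early gene but no transcription factor. Its level was 3.69 in B6, 8.33, 7.07 and 7.41 across Sf 1 to 3, and 6.96, 7.37 and 8.14 across Sf.Il2-/- 1 to 3. All 6 mutant arrays lay far above B6, and the 2 mutant groups overlapped. In Sf the rise was 3.92 ± 0.53 on the log2 scale (SE; 3 arrays against 1), or 15.1-fold (95% interval 6.64 to 34.3; limma adjusted p = 0.00816). In Sf.Il2-/- it rose by 3.80 ± 0.53, or 14.0-fold (95% interval 6.14 to 31.7; adjusted p = 0.0101). Both comparisons use the same B6 array.

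Ier3 was bright enough to be tested only through the mutant groups, and its B6 value was close to the lower quartile of that array (3.54), so the size of the difference is not exact. Over the alternatives it ranged from 2.91 to 4.18 in Sf and from 2.81 to 4.07 in Sf.Il2-/-, and it passed the threshold in each of the 16 tried. Between the mutant groups Ier3 differed by -0.11 ± 0.37 (95% interval -0.95 to 0.73; adjusted p = 0.971). The summed level of the neutrophil markers was highest in Sf 1 and Sf.Il2-/- 2, and without both arrays the rises of Ier3 were 3.55 and 3.86. The summed level of the 2 NK cell markers found (of 3) was 7.01 in B6, 7.35 to 8.47 in Sf and 8.83 to 9.91 in Sf.Il2-/-. It followed Eomes, which T cells can also express, while Ncr1 read 3.01 in B6, 2.14 to 3.12 in Sf and 2.52 to 2.83 in Sf.Il2-/-. The summed level of the 2 erythroid markers found (of 4) was 5.83 in B6 and 2.86 to 4.36 in the mutants. Their part in the Ier3 result was not tested. In such bulk samples more cells of a type and more RNA per cell cannot be told apart. At 1 gene of 10, the count for these genes compares with 1.31% of all genes tested that were higher in Sf and 1.49% in Sf.Il2-/- (2.47% and 2.69% in either direction, 1.16% and 1.20% lower).

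Atf3 was the one gene whose 3 Sf.Il2-/- arrays all lay below the 3 Sf arrays, and it did not pass the threshold. Atf3 is a stress-induced member of the ATF and CREB family that pairs with Jun proteins and often acts as a repressor. It read 3.86 in B6, 5.59, 6.30 and 4.69 across Sf 1 to 3, and 3.28, 3.07 and 3.84 across Sf.Il2-/- 1 to 3. The Sf arrays were the 3 highest, and the Sf.Il2-/- arrays lay just under B6 or lower. Sf.Il2-/- differed from Sf by -2.13 ± 0.45 (log2, SE, n = 3 and 3; 95% interval -3.13 to -1.13; adjusted p = 0.149), a ratio of 4.38. With log2(intensity + 16) the difference was -1.28. Of all genes tested, 12.1% had mutant groups that did not overlap, 8.39% with Sf.Il2-/- higher and 3.72% with it lower, against this 1 of 10.

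Atf3 was bright enough to be tested only through the Sf arrays, and the 4 other values were near the floor, so its sizes are not exact either. Sf differed from B6 by 1.66 ± 0.63 (adjusted p = 0.170) and Sf.Il2-/- from B6 by -0.47 ± 0.63 (adjusted p = 0.739). Without Sf 3 Atf3 passed both against Sf.Il2-/- (-2.55, adjusted p = 0.0113) and against B6 (2.08, adjusted p = 0.0167). Over all genes the same step took the calls from 32 to 872 and from 283 to 3523. The differences between arrays of the same number (Sf.Il2-/- minus Sf) were -2.31, -3.23 and -0.85, and with the replicate number as a block the adjusted p was 0.0996. Atf3 was at its lowest (3.07) in Sf.Il2-/- 2, where the summed level of the neutrophil markers was highest (9.13). It read 5.59 in Sf 1, where that level was the next highest (8.37). The part of neutrophil transcripts in Atf3 was not tested.

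Among the 4 Fos and Jun genes, which code for AP-1 subunits, none passed the threshold in any comparison. The spread between arrays of a group was wide for Fos in both mutant groups and for Fosb and Jun in Sf.Il2-/-, and narrow for Junb. Fos read 11.44 in B6, 11.42, 12.01 and 10.38 across Sf 1 to 3, and 11.08, 9.88 and 11.25 across Sf.Il2-/- 1 to 3. The mutant groups overlapped, and Sf.Il2-/- 2 and Sf 3 were the lowest of the 7 arrays. Fos differed between the mutant groups by -0.54 ± 0.43 (95% interval -1.51 to 0.44; adjusted p = 0.871). Its SD was 0.82 in Sf and 0.74 in Sf.Il2-/- (n = 3 each), larger than that of 96.8% and 97.4% of all genes tested.

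Fosb, a close relative of Fos, read 5.58 in B6, 6.91, 7.71 and 6.75 across Sf 1 to 3, and 6.37, 5.24 and 7.58 across Sf.Il2-/- 1 to 3. The Sf arrays all lay above B6, while the Sf.Il2-/- arrays lay on both sides of it and were spread widely. Sf differed from B6 by 1.54 ± 0.72 (95% interval -0.07 to 3.15; adjusted p = 0.238). Sf.Il2-/- differed from Sf by -0.73 ± 0.51 (adjusted p = 0.829). With arrays 1 and 2 of each mutant group alone, Fosb passed in Sf against B6 (1.72, adjusted p = 0.0184), as did 5347 genes of the whole array under that setting.

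Jun, the founding partner of Fos, read 9.36 in B6, 9.63, 10.08 and 9.55 across Sf 1 to 3, and 7.64, 9.25 and 10.09 across Sf.Il2-/- 1 to 3. Sf.Il2-/- 1 and Sf.Il2-/- 3 were the lowest and the highest of all 7 arrays, which put the SD of that group at 1.24, above that of 99.6% of genes. The second, dimmer Jun probe set gave 6.81 in B6, 6.83, 7.14 and 6.78 across Sf 1 to 3, and 5.60, 6.01 and 6.87 across Sf.Il2-/- 1 to 3. Both probe sets placed Sf.Il2-/- 1 lowest. The differences between the mutant groups were -0.76 ± 0.51 at the brightest (adjusted p = 0.821) and -0.76 ± 0.31 at the second (adjusted p = 0.657 over 20617 probe sets).

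Junb, an AP-1 subunit that supports Th2 cytokine genes, varied least of the 4. It read 11.38 in B6, 11.26, 11.59 and 11.10 across Sf 1 to 3, and 11.37, 11.05 and 11.31 across Sf.Il2-/- 1 to 3. B6 lay inside the range of the Sf arrays and just above the Sf.Il2-/- arrays. The interval of its difference between mutant groups ran from -0.45 to 0.30 around -0.08 ± 0.17 (adjusted p = 0.960), and that between Sf and B6 from -0.59 to 0.47.

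**Figure D2:**
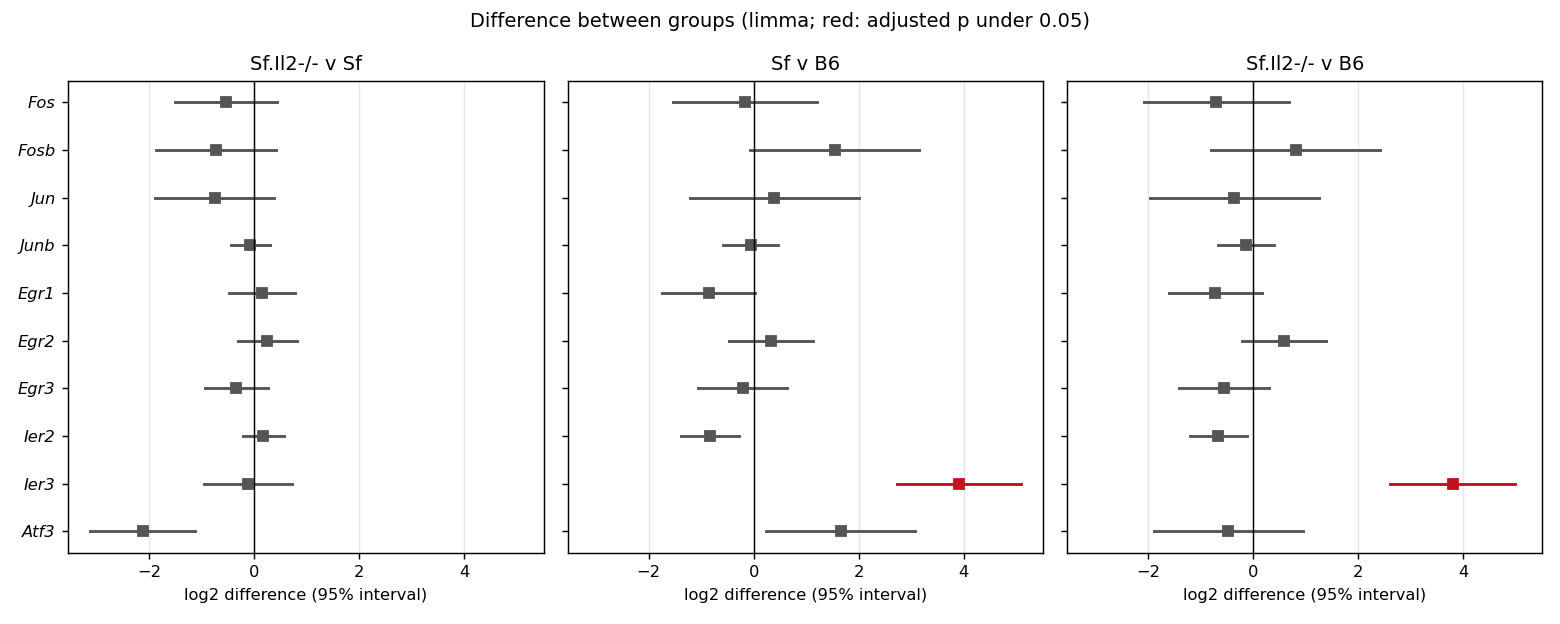
Log2 differences between groups (squares) with 95% intervals from limma (lines) for the 10 genes in the 3 comparisons, red where the adjusted p is under 0.05. Ier3 against B6 is red in both panels (3.92 and 3.80), and the Atf3 interval between the mutant groups (-3.13 to -1.13) leaves out 0 although its adjusted p is 0.149.

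None of the 3 Egr genes passed the threshold. Egr1, whose protein binds GC-rich sites and is induced by the antigen receptor through the ERK kinases, read 10.92 in B6, 10.03, 9.76 and 10.40 across Sf 1 to 3, and 10.62, 9.60 and 10.39 across Sf.Il2-/- 1 to 3. B6 was the highest of the 7 arrays. Sf differed from B6 by -0.86 ± 0.40 (95% interval -1.75 to 0.03; adjusted p = 0.232) and Sf.Il2-/- from B6 by -0.72 ± 0.40 (adjusted p = 0.370). Under quantile normalization of the arrays these differences shrank to -0.19 and -0.39.

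Egr2, which limits T cell activation and supports tolerance, read 8.75 in B6, 9.26, 8.61 and 9.37 across Sf 1 to 3, and 9.62, 9.15 and 9.22 across Sf.Il2-/- 1 to 3. Sf 2 alone lay below B6. Its second, dimmer probe set kept nearly the same order, with 7.92 in B6, 8.67, 8.08 and 8.77 across Sf 1 to 3, and 8.86, 8.50 and 8.55 across Sf.Il2-/- 1 to 3, Sf 2 again being the lowest mutant array. Sf.Il2-/- differed from B6 by 0.58 ± 0.36 at the brightest (adjusted p = 0.425) and from Sf by 0.25 ± 0.25 (95% interval -0.32 to 0.81; adjusted p = 0.896).

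Egr3, a partner of Egr2 in that role, read 9.70 in B6, 9.62, 9.05 and 9.80 across Sf 1 to 3, and 9.39, 8.70 and 9.34 across Sf.Il2-/- 1 to 3. Number 2 was the lowest array of both mutant groups. The second, dimmer Egr3 probe set read 6.94 in B6, 5.87, 6.55 and 6.87 across Sf 1 to 3, and 6.96, 6.91 and 6.61 across Sf.Il2-/- 1 to 3. It did not follow the first: the mutant groups differed by -0.35 ± 0.27 at the brightest (adjusted p = 0.861) and by 0.40 ± 0.27 at the second (adjusted p = 0.872). The sign of the Egr3 difference therefore depended on the probe set.

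Ier2, which codes for a nuclear protein thought to regulate transcription, had the narrowest groups of the 10 genes and lay lower in both mutants than in B6 without passing the threshold. It read 11.17 in B6, 10.22, 10.24 and 10.55 across Sf 1 to 3, and 10.46, 10.38 and 10.69 across Sf.Il2-/- 1 to 3. All 6 mutant arrays lay below B6. The differences from B6 were -0.83 ± 0.24 in Sf (95% interval -1.38 to -0.29; adjusted p = 0.101) and -0.66 ± 0.24 in Sf.Il2-/- (adjusted p = 0.198). Ier2 passed in both when Sf 3 was left out (adjusted p = 0.00997 and 0.0432), a setting in which 3523 and 1541 genes of the whole array passed. Quantile normalization reduced the differences to -0.16 and -0.37. The median of all genes moved likewise, from -0.25 to 0.03 in Sf and from -0.14 to 0.06 in Sf.Il2-/-.

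Taking the 10 genes by comparison, 0 passed between Sf.Il2-/- and Sf by limma, against 0.279% of all genes tested (0.0436% higher and 0.236% lower), and 1 (Atf3) had an unadjusted p under 0.05, as 7.92% of all genes had. In a fit of the 6 mutant arrays alone 34 genes of the whole array passed, and with the replicate number as a block 60, in both cases none of the 10. The median difference of the 10 genes was -0.23 where that of all genes was 0.08. Against B6 the medians were 0.14 in Sf (all genes -0.25) and -0.41 in Sf.Il2-/- (all genes -0.14). Arrays did not overlap with the B6 array for 6 of the 10 genes in Sf and 8 in Sf.Il2-/-, next to 66.5% and 69.2% of all genes, so these shares were near the background. Of the 6, Fosb, Jun, Ier3 and Atf3 lay above B6 (19.6% of all genes) and Egr1 and Ier2 below (46.9%). Of the 8, Egr2 and Ier3 lay above it (24.7% of all genes) and Fos, Junb, Egr1, Egr3, Ier2 and Atf3 below (44.5%).

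Within Sf, the 4 Fos and Jun genes shared one order of arrays and the 3 Egr genes another. This grouping by family was made after the values were seen and was given no test. In Sf 2 all 4 Fos and Jun genes were at the highest of the 3 Sf arrays, on average 0.48 above the group mean, and the 3 Egr genes at the lowest, on average at -0.41. In Sf 3 the order turned: the 4 Fos and Jun genes were the lowest (-0.42) and the 3 Egr genes the highest (0.31). Atf3 followed the Fos and Jun genes, with its highest Sf value in Sf 2 and its lowest in Sf 3. In the deposited values the Fos and Jun order was opposite to that of most genes, which were lowest in Sf 2 and highest in Sf 3, and the Egr order ran with it. Quantile normalization ended that contrast, since all genes were then most often lowest in Sf 3 (5433 of 11460, against 3623 in Sf 2). They were also most often highest in Sf 3 (4491, against 4190 in Sf 2), so they did not take the Fos and Jun order as a whole. After quantile normalization the 4 Fos and Jun genes stayed highest in Sf 2 and lowest in Sf 3. The 3 Egr genes were then all highest in Sf 1, and 2 of them lowest in Sf 2 and 1 in Sf 3. With arrays centred on their medians instead, both families kept the order of the deposited values. The 3 Egr genes were highest in Sf 3 and lowest in Sf 2, and the 4 Fos and Jun genes the reverse.

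**Figure D3:**
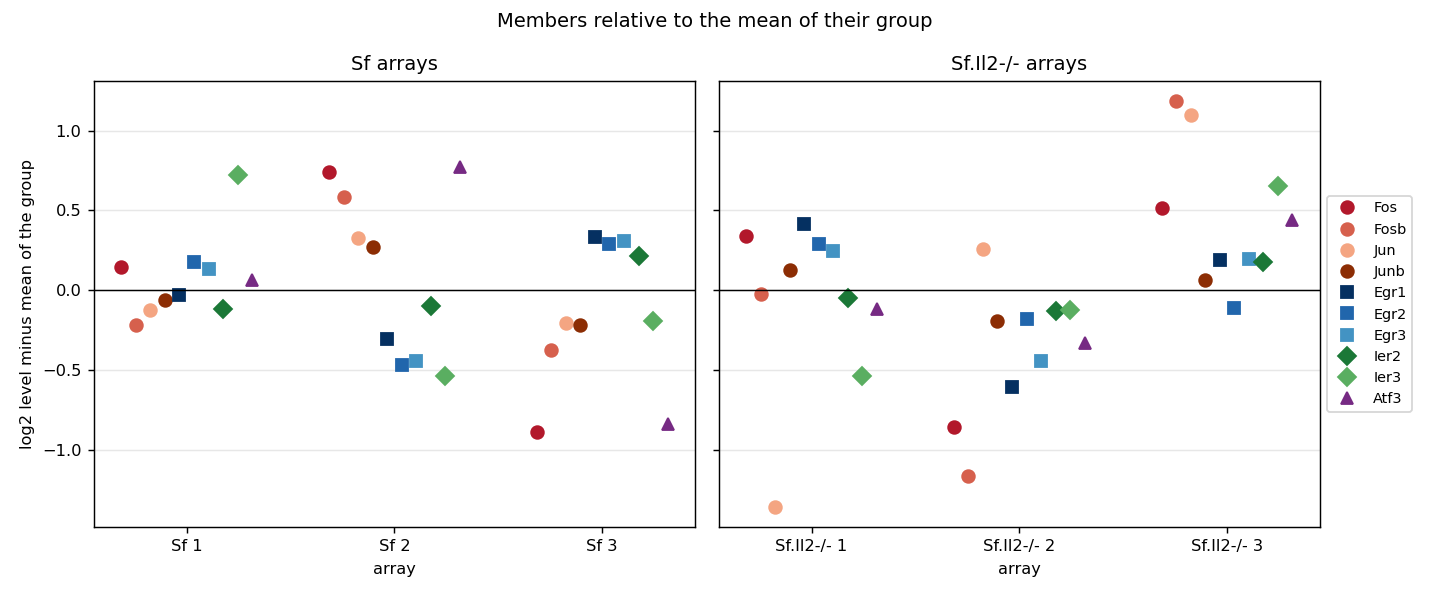
Log2 level of each gene minus the mean of its group (vertical axis) in the 3 Sf arrays (left) and the 3 Sf.Il2-/- arrays (right), with circles for Fos and Jun genes, squares for Egr genes, diamonds for Ier2 and Ier3 and a triangle for Atf3. The 4 circles lie above 0 in Sf 2 and below it in Sf 3, where the squares do the opposite, and Sf.Il2-/- 2 holds the lowest value of 8 of the 10 genes.

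In the Sf.Il2-/- group the 3 Egr genes were highest in Sf.Il2-/- 1, and 3 of the 4 Fos and Jun genes (not Junb) in Sf.Il2-/- 3. Sf.Il2-/- 2 was the lowest of its group for 8 of the 10 genes, where 36.4% of all genes were lowest in that array, and the exceptions were Jun and Ier3. Sf.Il2-/- 3 was the highest for 6 of the 10, next to 51.4% of all genes. After quantile normalization Sf.Il2-/- 2 was the lowest for 7, next to 3428 of all 11460 genes. Sf 3 was then the lowest of the Sf arrays for 8 of the 10, next to 5433 of all genes. In the deposited values it had been the lowest for 5 (all genes 23.3%). Hspa1b, a heat shock gene that rises in stressed cells, read 6.96 in Sf.Il2-/- 2, 5.79 and 5.78 in the other 2 arrays of that group, 6.06 to 6.26 in Sf and 5.63 in B6. It was chosen after its values were seen, and of the 12 heat shock and stress genes tested Sf.Il2-/- 2 was the highest of its group for 3 and the lowest for 6. Sf.Il2-/- 2 also had the highest summed level of neutrophil markers, and the part of neutrophil transcripts in the low values was not tested. The median SD of the 10 genes was 0.40 in Sf and 0.47 in Sf.Il2-/-, where that of all genes was 0.31 and 0.22.

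The array order of the Fos and Jun genes was also the most frequent one among other early response genes. Of 23 tested genes of that list, which was written with earlier results of these data known, 15 were highest in Sf 2 (all genes 18.0%) and 14 lowest in Sf 3 (all genes 23.3%). In Sf.Il2-/- 15 of the 23 were lowest in Sf.Il2-/- 2 (all genes 36.4%). The phosphatase gene Dusp1, for example, stood at 10.89 in B6, at 11.58, 12.02 and 10.81 across Sf 1 to 3 and at 11.35, 10.73 and 11.31 across Sf.Il2-/- 1 to 3. It was chosen after its values were seen. After quantile normalization 20 of the 23 were highest in Sf 2, as were 4190 of all 11460 genes, and 18 were lowest in Sf 3, as were 5433 of all genes.

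**Figure D4:**
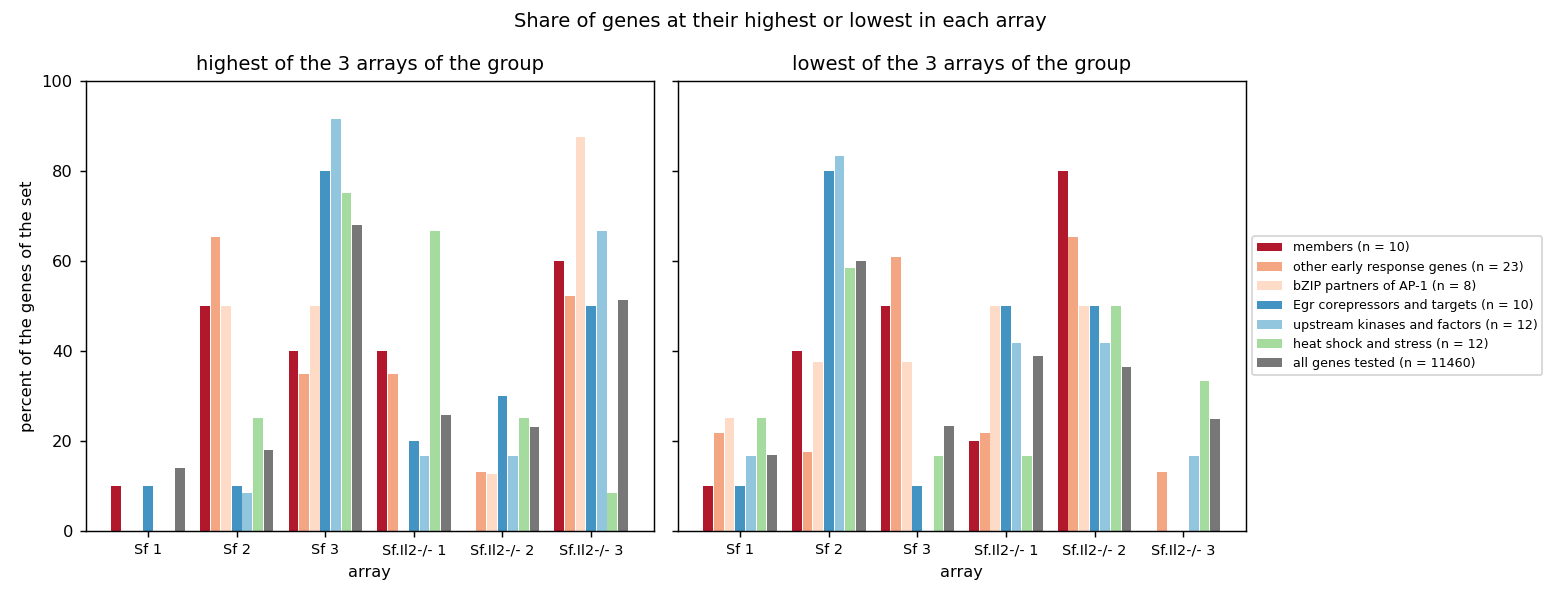
Percent of the genes of each set (bars, coloured by set, with the number of genes in the legend) that are at their highest (left) or lowest (right) among the 3 arrays of their group. The other early response genes are most often highest in Sf 2 (15 of 23), where all genes are most often lowest, and the 10 genes are most often lowest in Sf.Il2-/- 2 (8 of 10).

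Between the groups, 1.31% of all genes tested rose in Sf against B6 and 1.49% in Sf.Il2-/-, and 1 of the 23 other early response genes did in both. It was Rgs1, a brake on chemokine receptor signalling, by 2.36 ± 0.39 in Sf (adjusted p = 0.0180) and by 1.75 ± 0.39 in Sf.Il2-/- (adjusted p = 0.0487). Between the mutants 0 of 23 passed by limma, with 5 at an unadjusted p under 0.05 (7.92% of all genes), the lowest being Klf6 at -1.02 ± 0.28 (adjusted p = 0.361). The median of this list was -0.34 there, 0.04 in Sf against B6 and -0.37 in Sf.Il2-/- against B6. Of 8 tested leucine zipper partners of AP-1, Batf, which pairs with Jun proteins and IRF4 in effector T cells, rose in Sf.Il2-/- against B6 by 2.60 ± 0.41 (adjusted p = 0.0140). In Sf it read 9.55, 9.32 and 10.50 against 8.02 in B6, a difference of 1.77 ± 0.41 that just missed the threshold (adjusted p = 0.0557). Batf was thus 1 of 8 past the threshold in Sf.Il2-/- against B6, where 1.49% of all genes rose. In these 8 genes 0 passed between the mutants by limma, 3 having an unadjusted p under 0.05 (7.92% of all genes). The lowest was Fosl2 at -1.06 ± 0.30 (adjusted p = 0.372).

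Of 10 Egr corepressors and targets, 2 rose in Sf against B6 and 0 fell, where 1.31% and 1.16% of all genes did. They were Rnf128, which codes for the ubiquitin ligase GRAIL, by 2.49 ± 0.38 (adjusted p = 0.0140), and Cdkn1a, the cell cycle inhibitor p21, by 2.06 ± 0.30 (adjusted p = 0.0111). The list median was -0.48, below 0 like that of all genes. In Sf.Il2-/- against B6 0 of the 10 passed by limma, with 5 at an unadjusted p under 0.05 (18.6% of all genes) and Rnf128 at 1.42 ± 0.38 (adjusted p = 0.0947). Between the mutants 0 passed and 5 had an unadjusted p under 0.05 (7.92% of all genes), with Cdkn1a at -1.07 ± 0.21 (adjusted p = 0.122). Upstream, 0 of 12 kinases and factors passed in any comparison by limma, with 5, 4 and 0 at an unadjusted p under 0.05 in Sf against B6, Sf.Il2-/- against B6 and between the mutants, where 22.5%, 18.6% and 7.92% of all genes had such a p. SRF itself, from Srf, read 9.95 in B6, 8.59 to 8.86 in Sf and 8.74 to 9.18 in Sf.Il2-/- (-1.23 ± 0.29 in Sf, adjusted p = 0.0583). Of 12 heat shock and stress genes 0 passed by limma in the 3 comparisons, with 1, 0 and 1 at an unadjusted p under 0.05 in the same order.

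Of genes outside the set, those whose centred levels over the 7 arrays came nearest to the mean of the 10 were Xxylt1, Bmpr1a, Crem, Sec24d and Hyls1, at root mean square distances of 0.11 to 0.15 (log2) from a profile that itself varied by 0.33. Crem codes for a leucine zipper factor of the cAMP response. Nearest to Atf3 was Cxcl2, a chemokine gene, at 0.29, which read 3.98 in B6, 5.71, 6.16 and 5.17 across Sf 1 to 3, and 4.10, 3.32 and 3.89 across Sf.Il2-/- 1 to 3. Prxl2a followed at 0.45. Nearest to Fos were Mageb3 (0.23) and Csrnp1 (0.28), nearest to Fosb Tnfaip3 (0.38), the gene of the A20 inhibitor of NF-kappaB, and Hspa2 (0.40), and nearest to Jun Rhob (0.39) and Mmd2 (0.41). For Ier3 they were Ryk (0.49) and Gzmb (0.52), for Ier2 Mex3b (0.040) and Thrap3 (0.050), and for Junb Prkab2 (0.049) and Def8 (0.073). The Egr genes lay nearest to Atic (0.11) and Smc4 (0.12) for Egr1, Rnaseh2b (0.11) and Stmn1 (0.11) for Egr2, and Pwwp2a (0.11) and Ubn2 (0.12) for Egr3. These distances describe 7 arrays and were searched over all genes tested.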

How the data were processed

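The data are 7 Affymetrix arrays. The values were deposited by the authors as 1 intensity per probe set and array on a linear scale, for 45037 probe sets, and the submitters' processing notes name GCRMA and GCOS without versions, order or parameters. Array annotation named 1 gene for 34945 probe sets, and symbols were updated through Entrez numbers. Of the list genes 69 of 72 and of the marker genes 39 of 46 were found. Each gene was its probe set with the highest mean, and was tested where the highest group mean of log2(intensity + 1) was at least 5. A model in limma 3.58.1 (R 4.3.3; lmFit and eBayes with trend) was fitted with no covariate, as 1 fit of 3 group means over 7 arrays, with 4 residual degrees of freedom and Benjamini-Hochberg adjustment over 11460 genes at 0.05. The B6 array is assumed to vary like the others, and whether mutant arrays came from separate mice is not stated, so p-values measure the spread between arrays. The fit was checked on simulated data.

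The 10 genes, lists and tests were chosen with earlier results of these data known. Beside the 10 genes the text names up to 4 genes per list and comparison past the threshold by size, or the one with the lowest p, and the nearest genes by distance (5 for the mean, 2 per gene). Genes named for a check of the arrays are given as such. Alternatives are given in the closing section. Replicate numbers come from the array titles. Arrays of the same number in both mutant groups deviated together over all genes (correlations 0.301, 0.211 and 0.505), although Sf.Il2-/- 1 correlated better with Sf 2 (0.333). This does not settle whether the numbers pair the arrays, and no label says what a number marks. The model keeps no block, and one with it was an alternative. Figures were drawn with matplotlib 3.10.9.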

Additional observations from a re-analysis of the deposited data

How the results depend on the processing

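Ier3 kept its rise against B6 past the threshold in all 16 alternatives of both comparisons (other pseudocount, filters, scalings, eBayes without trend, mean of probe sets, arrays left out, a 2-fold threshold). Leaving out 1 array gave 0 to 1 of the 10 genes past the threshold between the mutants, 1 to 3 in Sf against B6 and 1 to 2 in Sf.Il2-/- against B6, the higher counts without Sf 3. Without number 3 of both mutant groups they were 1 (Atf3), 4 (Atf3, Fosb, Ier2 and Ier3) and 2 (Ier2 and Ier3).

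Differences near 0 changed sign in places. Between the mutants, quantile normalization gave -0.20 for Egr1 and -0.21 for Ier2, centring on medians 0.013 for Junb, the mean of probe sets 0.027 for Egr3, and leaving out Sf 1 with Sf.Il2-/- 2 gave 0.31 for Ier3. Leaving out 1 array gave -0.44 to 0.25 for Ier3, -0.18 to 0.060 for Junb and -0.067 to 0.44 for Egr1. In Sf against B6, quantile normalization gave 0.23 for Fos, 0.45 for Junb and 0.33 for Egr3, and leaving out number 3 gave 0.28 for Fos and 0.047 for Junb. Leaving out 1 array gave -0.54 to 0.28 for Fos, -0.20 to 0.047 for Junb and -0.36 to 0.013 for Egr3. In Sf.Il2-/- against B6, Junb was 0.099 after quantile normalization and Jun lay between -0.91 and 0.32 with 1 array left out. None of these values passed, Atf3 was not tested with the filter at 6, and the cause was not tested.

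Over all genes the counts past the threshold were 32 between the mutants, 283 in Sf against B6 and 308 in Sf.Il2-/- against B6. They became 8 to 872, 116 to 3523 and 129 to 1541 with 1 array left out, the highest without Sf 3, and 565, 5347 and 3393 without number 3. Without the filter they were 11, 161 and 138. Quantile normalization gave 33, 555 (392 higher, 163 lower, against 150 and 133) and 723 (484 higher, 239 lower, against 171 and 137). The mean of probe sets gave 188 in Sf against B6. The 6 mutant arrays alone gave 34 between the mutants (5 higher, 29 lower). The replicate block added to that fit gave 60 (15 higher, 45 lower), with none of the 10 genes. The block was fitted to the mutant arrays only, so it gave no calls against B6. No paired analysis was possible for B6 because its 1 array shares fewer than 2 numbers with a mutant group. Precision is limited by how few arrays there are, and values near 3.5 are near the floor.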
